A study of Mus musculus with 2 samples.

Results

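The genes described here are the platelet-derived growth factor (PDGF) ligands Pdgfa, Pdgfb and Pdgfd, the PDGF receptors Pdgfra and Pdgfrb, the surface genes Cspg4, Anpep and Mcam used to mark pericytes, and the ligand and receptor pair Gas6 and Axl. They were chosen by name and matched by Ensembl identifier, and all 10 were listed in both libraries, among 27040 genes listed in both. Cells of the mouse stria vascularis (SV), the capillary-rich epithelium of the cochlear lateral wall, had been captured on the 10x Chromium 3′ platform in 2 separate libraries, 1 for each of the reporter lines Tie2-GFP and NG2-DsRed. Each library pooled 20 cochleae of 10 mice of both sexes aged 1 to 3 months, the sources name no treatment or other allele for either group, and there is no replicate. In Tie2-GFP mice GFP is driven by the promoter of Tek, a receptor gene of ECs (endothelial cells), and in NG2-DsRed mice the promoter of Cspg4, itself among the genes described here, drives DsRed. Cells were sorted for the reporter when this was needed, so the sort, the mouse line and the library cannot be told apart.

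PDGF ligands are secreted dimers that bind receptor tyrosine kinases on neighbouring cells. In most vascular beds ECs make PDGF-B, and pericytes (PCs) and smooth muscle cells, together called mural cells, carry PDGF receptor beta and depend on that signal to cover new capillaries. Gas6 is a vitamin K-dependent ligand of the TAM receptor kinases, named after Tyro3, Axl and Mertk. NG2 (Cspg4), aminopeptidase N (Anpep, CD13) and CD146 (Mcam) are surface proteins by which PCs are commonly recognised in tissue.

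The promoters of 3 genes are shown as background: the gene whose promoter drives the DsRed reporter, and the Gas6 and Axl pair. No class or level below was taken from these sequences. They are RefSeq sequences of GRCm38.p6, where 8 of the 10 genes were matched, and each covers bases 250 to 101 before the annotated start, written 5′ to 3′ on the gene's strand. Capitals mark a GC box, GGGCGG or its reverse complement.
Cspg4, chr9:56864854-56865003, plus strand: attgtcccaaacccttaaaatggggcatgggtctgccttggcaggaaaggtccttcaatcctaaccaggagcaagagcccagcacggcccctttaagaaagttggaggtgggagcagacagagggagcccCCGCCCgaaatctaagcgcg
Gas6, chr8:13494636-13494785, minus strand: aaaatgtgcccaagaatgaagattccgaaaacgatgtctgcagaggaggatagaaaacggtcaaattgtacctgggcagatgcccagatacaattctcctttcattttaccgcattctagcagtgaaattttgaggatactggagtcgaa
Axl, chr7:25788834-25788983, minus strand: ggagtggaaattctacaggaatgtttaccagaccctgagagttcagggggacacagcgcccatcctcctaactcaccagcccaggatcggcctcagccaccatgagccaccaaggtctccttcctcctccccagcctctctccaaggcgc
The window of Cspg4 held 1 GC box and those of Gas6 and Axl held 0, while 16.7% of the 32851 windows of this length in the table held at least 1. The letters CATGTG, an E-box bound by MITF-type factors, and TATAAA, searched on both strands, were in none of the 3 windows and in 7.94% and 7.29% of all windows. The GC content was 56.7% for Cspg4, 42% for Gas6 and 59.3% for Axl. A match of letters is a description of these windows and does not show that a factor binds. The windows end 101 bases before the start annotated for these sequences, so motifs closer to it were not searched. For all 3 genes that start differs from the one in the gene coordinates that follow. In the GRCm38 annotation the genes lie at chr9:56865033-56899870 (Cspg4), chr8:13465374-13494490 (Gas6), chr7:25757273-25788705 (Axl), chr5:138976014-138997370 (Pdgfa), chr15:79995874-80014977 (Pdgfb) and chr9:44134469-44142727 (Mcam).

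Barcodes were put into classes by genes other than those described here. ECs held unique molecular identifiers (UMIs) of at least 4 of Pecam1, Cdh5, Cldn5, Flt1, Egfl7 and Ramp2. Mural barcodes held at least 2 of Rgs5, Vtn and Notch3 and at most 1 of the endothelial genes, and they were split into contractile mural, with at least 3 summed UMIs of Acta2, Tagln and Myh11, and other mural. Intermediate cells, the melanocyte-derived cells that lie beside the strial capillaries, held Dct, Tyr and Kcnj10. The Tie2-GFP library gave 379 ECs, 4 mural and 87 intermediate barcodes of 633, and the NG2-DsRed library 58 ECs, 42 contractile mural, 58 other mural and 23 intermediate barcodes of 201. No cell barcode was shared between the libraries.

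Markers outside the class rules were then checked. In the 100 mural barcodes of the NG2-DsRed library Ndufa4l2 was found in 90%, Higd1b in 81% and Cox4i2 in 65%. Abcc9 was in 63%, Kcnj8 in 57% and Des in 52%. Tek, Kdr and Erg were in 0 (up to 3% allowed) and Cd34 in 1%, although Emcn was in 33% and Esam in 72%. Of the fibroblast genes Col1a2 was in 46%, Col3a1 in 37%, Pdpn in 1% and Col1a1, Dcn and Lum in 0. The endothelial check genes were in 53.8% (Erg) to 95.8% (Cd34) of Tie2-GFP ECs and 43.1% (Erg) to 98.3% (Esam) of NG2-DsRed ECs. Of the contractile check genes, Pln at 381 against 13.2 CPM and Myl9 at 3438 against 1507 CPM were over 2-fold higher in contractile than in other mural barcodes, Mylk (log2 0.86) and Smtn (−0.15) were within 2-fold, Lmod1 had fewer than 50 UMIs (1.48), and Cnn1 was at 0 in both. Intermediate barcodes held Mlana, Met, Mitf and Slc45a2 in at least 91.3%, but Tyrp1 was at 0 and Pmel in 1 barcode of each library. They were also rich in mitochondrial UMIs, with a median of 9.31% in the Tie2-GFP library.

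The depth differed between classes. The median was 7431 UMIs in ECs and 15955 in intermediate barcodes of the Tie2-GFP library. In the NG2-DsRed library it was 9146 in ECs, 3871.5 in contractile mural, 2359 in other mural and 10383 in intermediate barcodes. Levels are therefore given as CPM, the summed UMIs of a gene in a class divided by all UMIs of that class and multiplied by 1000000, with exact Poisson 95% intervals, and shares of barcodes with exact Clopper-Pearson intervals and also as the share expected at 2000 UMIs per barcode. All intervals cover counting error only, and levels are compared between classes and not between genes.

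Some ECs carried mural genes, and this touches most of the results below. At least 2 of Rgs5, Vtn and Notch3 were found in 31 of 379 ECs of the Tie2-GFP library, at a median of 17499 UMIs against 7234 in the other 348. In the NG2-DsRed library they were found in 40 of 58 ECs, at 10320.5 against 7785 UMIs in the other 18. Of the other ECs, 43 of the 348 and 13 of the 18 still held 1 of these genes. Below, ECs with or carrying mural genes are those with at least 2 of them. Where leaving them out moved an EC value of a gene described here by over 1.5 times, that value is given too, and whether they hold more than 1 cell was not tested.

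**Figure D1:**
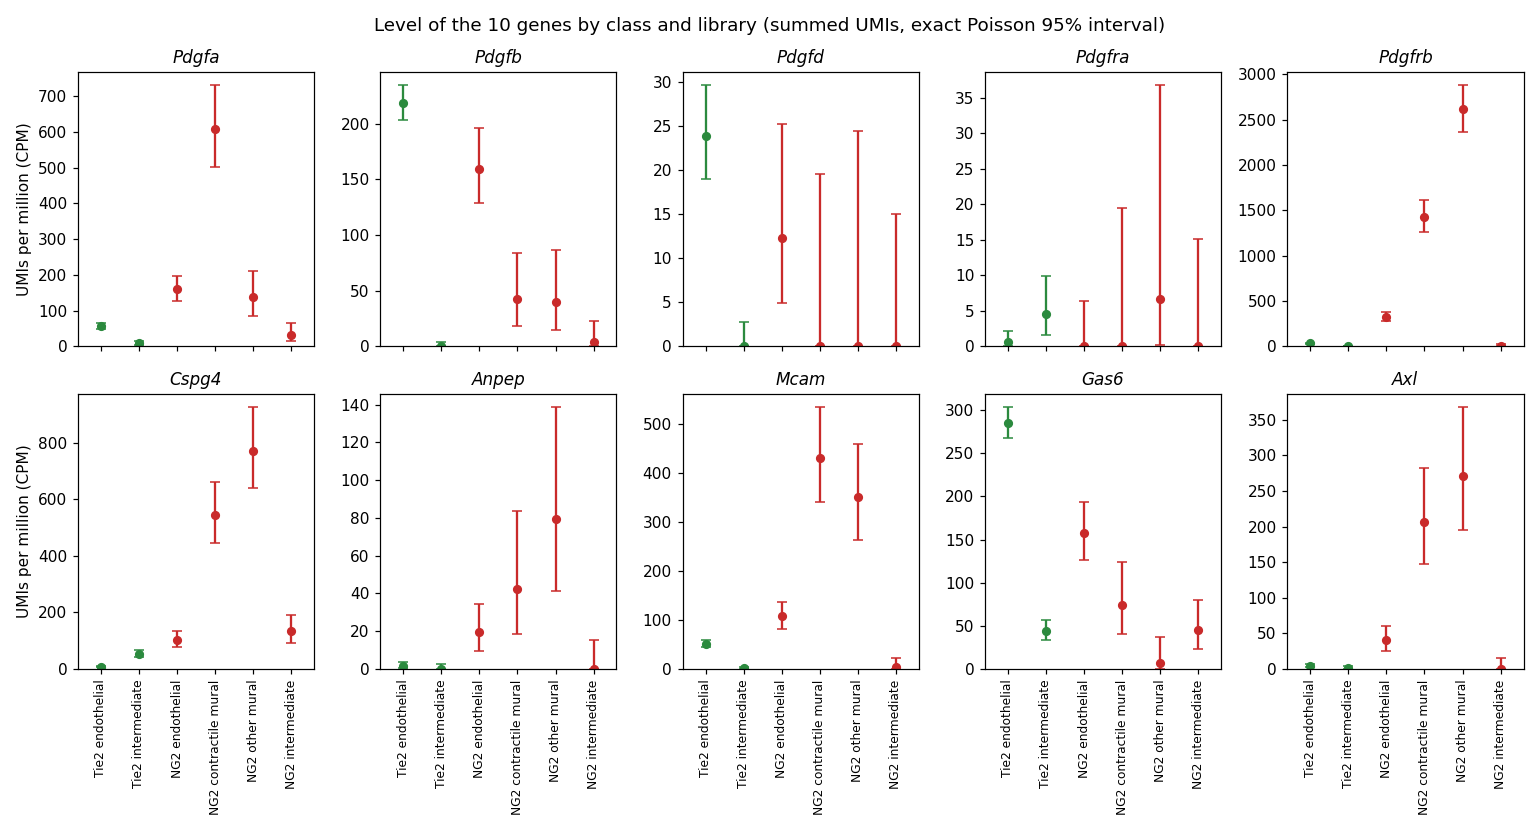
Level of each of the 10 genes in CPM (linear axes that differ between genes) in the 6 groups of at least 10 barcodes, green for the Tie2-GFP and red for the NG2-DsRed library, with exact Poisson 95% intervals. Pdgfb, Pdgfd and Gas6 stood highest in ECs, Pdgfrb, Cspg4, Anpep, Mcam and Axl in mural barcodes, and Pdgfa in contractile mural barcodes at 609 CPM.

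Among the ligands, Pdgfb was the endothelial gene of both libraries. In the Tie2-GFP library 276 of 379 ECs held a UMI (72.8%, 68.0 to 77.2), and the level was 218 CPM (203 to 235). Among the deeper intermediate barcodes 1 of 87 held 1 UMI (0.761 CPM, 0.0193 to 4.24). The NG2-DsRed ECs stood at 159 CPM (128 to 196), mural barcodes at 41.2 CPM (22.5 to 69.1) and intermediate barcodes at 4.08 CPM (0.103 to 22.7). Contractile and other mural barcodes lay side by side at 42.4 and 39.7 CPM, and the 14 Pdgfb UMIs of mural barcodes were spread over 13 barcodes.

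Pdgfa followed another order, with its highest level in contractile mural barcodes. It was present in 28 of 42 contractile mural barcodes (66.7%, 50.5 to 80.4) with 115 UMIs, or 609 CPM (503 to 731). In other mural barcodes 17 of 58 held it with 21 UMIs, or 139 CPM (85.9 to 212). ECs of the same library stood at 159 CPM (128 to 196), which overlaps other mural barcodes, and those of the Tie2-GFP library at 56.5 CPM (48.8 to 65.0). At 2000 UMIs the expected share was 52.2% in contractile mural, 25.8% in other mural, 24.9% in NG2-DsRed ECs and 5.05% in NG2-DsRed intermediate barcodes, the same order as the levels apart from the near-equal other mural barcodes and ECs.

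Pdgfd, whose product is secreted in a latent form and binds mainly PDGF receptor beta, was low and found in ECs. The Tie2-GFP ECs held 82 UMIs in 68 barcodes (23.9 CPM, 19.0 to 29.6), and those of the NG2-DsRed library 7 UMIs in 5 barcodes (12.3 CPM, 4.93 to 25.3), or 4 UMIs and 28.8 CPM (7.84 to 73.7) in the 18 with at most 1 mural gene. None of the 100 mural barcodes held a UMI, which allows up to 8.82 CPM, and 0 of 87 intermediate barcodes of the Tie2-GFP library did, which allows up to 2.28 CPM. Of the 68 ECs with Pdgfd, 57 also held Pdgfb, which was found in 276 of all 379 ECs. The remaining ligand of the family, Pdgfc, had 1 UMI in ECs, 2 in intermediate barcodes and 0 in mural barcodes.

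The receptors had separate distributions. Pdgfrb was present in 94 of 100 mural barcodes of the NG2-DsRed library (94%, 87.4 to 97.8) at 1955 CPM (1810 to 2110), with a median of 6 and at most 17 UMIs in a barcode. In intermediate barcodes it was in 2 of 23 (8.17 CPM, 0.989 to 29.5) and in the Tie2-GFP library in 1 of 87. The NG2-DsRed ECs stood at 326 CPM (281 to 376), but 178 of their 186 UMIs were in the 40 barcodes with mural genes. Of the 116 Pdgfrb UMIs in Tie2-GFP ECs, 114 were in the 31 barcodes with mural genes (215 CPM, 178 to 259), and the other 348 ECs held 2 UMIs in 2 barcodes (0.689 CPM, 0.0834 to 2.49).

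Pdgfra, the receptor that PDGF-AA needs, was almost absent from vascular barcodes. It had 1 UMI in mural barcodes of the NG2-DsRed library, where ECs held 0 (up to 5.26 CPM allowed), and 2 UMIs in 379 Tie2-GFP ECs (0.582 CPM, 0.0705 to 2.10). The Tie2-GFP library as a whole held 36 UMIs in 12 barcodes, of which 8 barcodes with 28 UMIs belonged to no class. Of the 45 mural barcodes with Pdgfa, 43 held Pdgfrb, a share near that of all mural barcodes (94 of 100).

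Of the surface genes, Cspg4 was present in 80 of 100 mural barcodes of the NG2-DsRed library (80%, 70.8 to 87.3) at 647 CPM (564 to 738). Mcam was present in 64 at 394 CPM (330 to 467). Anpep was sparse, with 20 UMIs in 16 mural barcodes (58.8 CPM, 35.9 to 90.8), 11 UMIs in 10 ECs (19.3 CPM, 9.62 to 34.5) and 0 of 23 intermediate barcodes. The 18 ECs with at most 1 mural gene held 1 of these UMIs (7.19 CPM, 0.182 to 40.1), and in the Tie2-GFP library the 348 such ECs held 0 and the 31 with mural genes 6. Axl was present in 50 of 100 mural barcodes at 235 CPM (187 to 293). Taking Pdgfrb, Cspg4, Anpep, Mcam and Axl together, 34 mural barcodes held 4 of the 5 genes, 32 held 3 and 23 held 2. Of the remainder 4 held all 5, 6 held 1, and 1 barcode of 517 UMIs held 0. The median depth went from 2076.5 UMIs in barcodes with 1 of these genes to 3519.5 in those with 4.

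As 94 of the 100 mural barcodes held Pdgfrb, most barcodes with another of these genes held it too. Pdgfrb and Cspg4 were found together in 76 mural barcodes, Pdgfrb alone in 18, Cspg4 alone in 4 and neither in 2. Of the 64 mural barcodes with Mcam 60 held Pdgfrb, and of the 50 with Axl 49 did. Mcam was not limited to mural barcodes. It was present in 117 of 379 Tie2-GFP ECs (30.9%, 26.3 to 35.8) at 51.5 CPM (44.2 to 59.7), and in the 348 with at most 1 mural gene it stood at 48.9 CPM (41.2 to 57.6). In intermediate barcodes Mcam had 1 UMI in each library.

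To compare mural cells with ECs within a library, CPM ratios were taken in the NG2-DsRed library, where both classes were large enough. A gene was called higher or lower when it had at least 50 UMIs in both classes together and its log2 ratio, with 0.5 UMIs added, was at least 1 or at most −1. With 1 library there is no test across mice, and a call is a rule of size. Of the 7 genes with 50 UMIs, 5 were higher in mural barcodes and 2 lower, where 13.2% of 3351 genes were higher and 15.4% lower. Their median log2 ratio was 1.88, against 0.02 over all genes tested. Axl reached 50 UMIs through the mural barcodes and Pdgfb and Gas6 through the ECs, so these calls are no evidence of a direction. Cspg4, Pdgfrb, Mcam and Pdgfa had at least 50 UMIs in each class. In the 18 ECs with at most 1 mural gene, however, they held 0, 8, 10 and 19 UMIs. Against those ECs they too reached 50 UMIs through the mural barcodes, so their calls there are no evidence of a direction.

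The higher genes were the receptors and surface genes, and Pdgfa. Cspg4 had a log2 ratio of mural to EC of 2.64 (2.23 to 3.09), Pdgfrb 2.58 (2.35 to 2.83), Axl 2.52 (1.86 to 3.28), Mcam 1.88 (1.44 to 2.34) and Pdgfa 1.32 (0.93 to 1.73). Pdgfb at −1.91 (−2.88 to −1.13) and Gas6 at −1.80 (−2.73 to −1.04) were lower. Pdgfd, Pdgfra and Anpep had fewer than 50 UMIs. Against the 18 ECs with at most 1 mural gene the ratio of Pdgfrb became 5.00 (4.10 to 6.30) and that of Axl 4.46 (2.51 to 10.35), with 8 and 1 UMIs in those ECs. The 8 Pdgfrb UMIs lay in 2 of these barcodes, 7 of them in 1 barcode. Cspg4 had 0 UMIs there and was at least 30.0-fold higher in mural barcodes. Pdgfb and Gas6 then had fewer than 50 UMIs, with log2 ratios of −1.48 (−2.63 to −0.35) and −2.12 (−3.15 to −1.18).

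**Figure D2:**
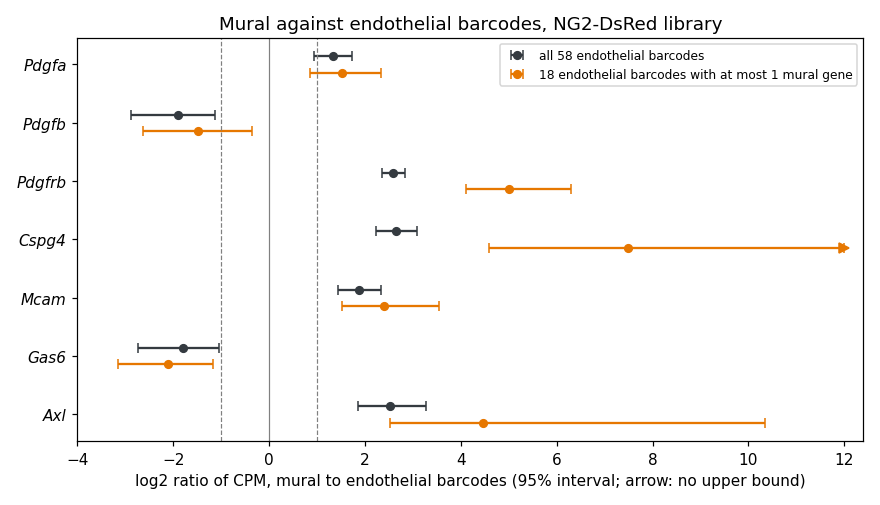
Log2 ratio of CPM in the 100 mural to that in EC barcodes of the NG2-DsRed library for the 7 genes with at least 50 UMIs, with exact 95% intervals, against all 58 ECs (black) and against the 18 ECs with at most 1 mural gene (orange). Pdgfrb moved from 2.58 to 5.00 and Axl from 2.52 to 4.46, while Pdgfb and Gas6 stayed below 0 with both.

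Other genes of the pathway, from lists drawn up for this tissue, were fewer and more mixed. Among 17 measured genes of signal relay below the receptor 3 were higher in mural barcodes and 3 lower. These shares are near those of all 3351 genes tested, of which 13.2% were higher and 15.4% lower. The signal relay genes past the rule included Pik3r1, a regulatory subunit of PI3 kinase, at 276 against 124 CPM (log2 1.15, 0.69 to 1.62), and the adaptor Nck1 at 52.9 against 165 CPM (−1.61, −2.45 to −0.90). Among 8 early response genes the feedback inhibitors Spry4 (1.85, 1.22 to 2.54) and Spry2 (1.45, 0.87 to 2.08) were higher and Dusp6, a phosphatase of ERK, was lower (−1.06, −1.61 to −0.57). Of 5 receptors and binding partners, Lrp1, an endocytic receptor that associates with PDGF receptor beta, was higher at 426 against 96.3 CPM (2.14, 1.69 to 2.62), as was Mertk (1.50, 0.67 to 2.39), and 0 were lower. Against the 18 ECs with at most 1 mural gene these became 3.72 (2.50 to 5.78) for Lrp1 and 2.50 (0.83 to 5.90; 2 UMIs in ECs) for Mertk, which then had fewer than 50 UMIs. The 4 measured genes of ligand processing were all within 2-fold. Against the 18 ECs Spry4 stood at 3.42 (1.82 to 6.81; 2 UMIs in ECs), and Dusp6 at −0.98 (−1.67 to −0.27) no longer passed. The 8 early response genes then had 2 higher and 1 lower, a gene other than Dusp6. Of the signal relay genes 2 kept 50 UMIs, of which 1 was higher. Over all 1752 genes tested against these ECs 21.1% were higher and 16.1% lower.

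A second list of pericyte surface genes moved mostly with Cspg4 and Mcam. Of its 7 measured genes 6 were higher in mural barcodes, with a median log2 ratio of 1.91. Ednra, the endothelin receptor, stood at 520 against 78.8 CPM (2.71, 2.24 to 3.23), the integrin gene Itga1 at 450 against 119 CPM (1.91, 1.50 to 2.35) and Art3 at 238 against 77.1 CPM (1.62, 1.08 to 2.19). Eng, a TGF-β co-receptor that ECs also carry, was lower at 115 against 342 CPM (−1.56, −2.11 to −1.07). Against the 18 ECs the count was again 6 of 7 higher and 1 lower, with a median of 3.27, where 21.1% of 1752 genes were higher and 16.1% lower. The list was made of genes of pericytes, so a higher level in mural barcodes was built into it. Neither count is evidence of a direction.

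Contractile and other mural barcodes were compared in the same way. Of 5 genes with 50 UMIs, Pdgfa was higher in contractile mural barcodes and 0 were lower, where 8.2% of 1146 genes were higher and 6.72% lower. Pdgfa reached 50 UMIs through the contractile class, with 115 against 21 UMIs, so this count is no evidence of a direction. The log2 ratio of Pdgfa was 2.11 (1.45 to 2.88), or 4.39-fold. Its median over single barcodes was 381 CPM in contractile and 0 in other mural barcodes, and the ranges overlapped fully, from 0 to 3480 and from 0 to 3868 CPM. The top values among other mural barcodes, 3868 and 3442 CPM, were 2 UMIs each in barcodes of 517 and 581 UMIs. When every barcode had equal weight the log2 ratio of Pdgfa fell to 1.15, and among barcodes of at least 2000 UMIs it was 2.25.

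The surface genes differed less, and mostly the other way. Pdgfrb stood at 1430 CPM (1265 to 1612) in contractile and 2611 CPM (2359 to 2881) in other mural barcodes, a log2 ratio of −0.87 (−1.10 to −0.64), and was found in 39 of 42 and 55 of 58. It passed the rule, at −1.06, when mural barcodes with an endothelial gene were left out. With every barcode weighted equally the log2 ratio of Pdgfrb was −0.65. Cspg4 stood at 546 CPM (445 to 662) and 773 CPM (640 to 927), a log2 ratio of −0.50 (−0.90 to −0.11). For Mcam (0.29, −0.22 to 0.82) and Axl (−0.39, −1.06 to 0.28) the interval of the ratio included 0. Gas6 had 14 UMIs in contractile and 1 in other mural barcodes, too few for a call (2.95, 0.77 to 8.89). Of the pericyte surface list 2 of 6 genes were lower in contractile barcodes, the laminin-binding integrin Itga7 (−1.12, −1.84 to −0.45) and the laminin chain Lama4 (−1.03, −1.81 to −0.31). Pik3r1 (−1.26, −1.94 to −0.64) was the only measured gene of signal relay, and it was lower. The plasminogen activator Plat (−1.51, −2.32 to −0.78) was the only measured gene of ligand processing, and it was lower too. Pik3r1 had 32 UMIs in contractile and 62 in other mural barcodes, Plat 22 and 51, and Itga7 29 and 51. All of them reached the minimum of UMIs through the other mural class. The calls of Pik3r1, Plat and Itga7 are therefore no evidence of a direction. None of 7 early response genes (median 0.33) and none of 4 receptors and partners (median −0.54) passed 2-fold.

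**Figure D3:**
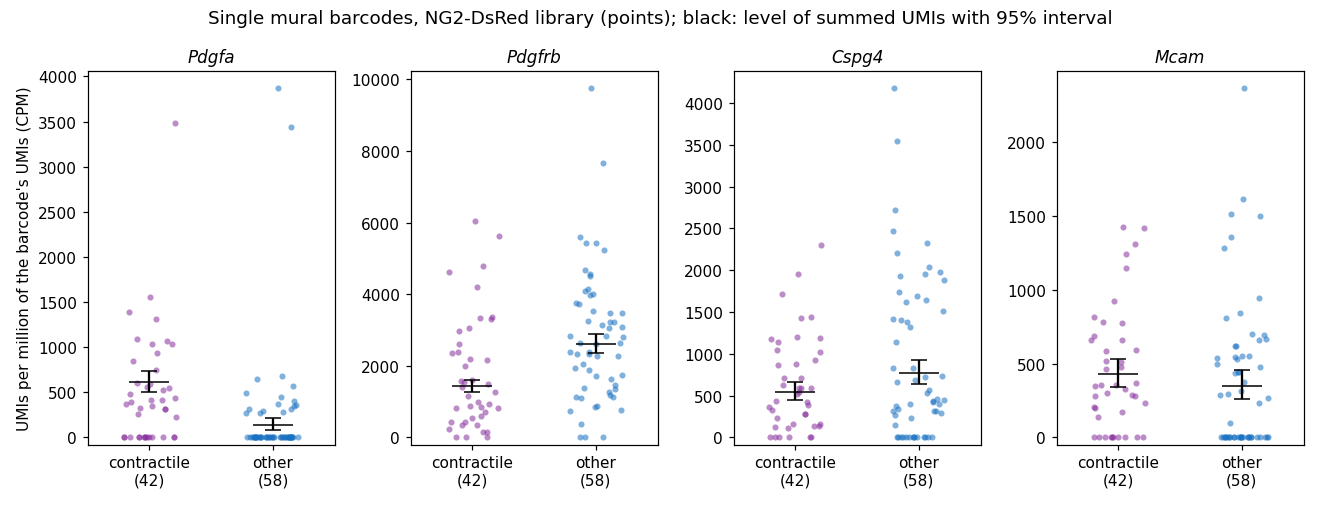
CPM in each single mural barcode of the NG2-DsRed library (points, linear axes), 42 contractile and 58 other, for Pdgfa, Pdgfrb, Cspg4 and Mcam, with the level of the summed UMIs and its exact 95% interval in black. Most other mural barcodes lie at 0 for Pdgfa, whose class level was 139 against 609 CPM, while Pdgfrb was lower in the contractile class at 1430 against 2611 CPM and single barcodes of both classes overlap.

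Intermediate cells were compared next, since they lie against the same capillaries. In the NG2-DsRed library the 5 genes with 50 UMIs were all lower in intermediate than in mural barcodes, where 25.4% of 2174 genes were lower and 19.8% higher. These 5 reached 50 UMIs through the mural class, so their count is no evidence of a direction, and Gas6, with 11 and 15 UMIs, stood at 0.04 (−1.24 to 1.25). Pdgfrb had a log2 ratio of −7.58 (−10.95 to −6.05), Mcam −6.01 (−11.91 to −4.09) and Pdgfa −3.53 (−4.85 to −2.59). Axl had 0 UMIs in intermediate barcodes, and the upper limit of the interval of its log2 ratio was −3.93. Among these 5 the ratio nearest to 0 was that of Cspg4, at −2.25 (−2.84 to −1.73). Of the wider lists, 6 of 7 pericyte surface genes and 5 of 8 early response genes were lower, among them Itga1 (−6.20, −12.10 to −4.28) and Fos (−2.40, −2.57 to −2.24), and Cd44 was higher (5.98, 4.41 to 9.36). The pericyte surface list was made of genes of pericytes, so its count is no evidence of a direction. In the Tie2-GFP library, where intermediate barcodes were set against ECs, 1 of 7 genes was higher and 6 lower (17.7% and 28.6% of 8391 genes). Pdgfa, Pdgfb, Pdgfd, Pdgfrb and Mcam reached 50 UMIs through the ECs. Cspg4 reached it through the intermediate barcodes, with 71 against 25 UMIs. This count too is therefore no evidence of a direction. The mural barcodes are those of the comparison with ECs above, so both comparisons share them.

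The gene that was higher was Cspg4. In the Tie2-GFP library it was present in 33 of 87 intermediate barcodes (37.9%, 27.7 to 49.0) with 71 UMIs, or 54.0 CPM (42.2 to 68.2), and no barcode held more than 5. In the NG2-DsRed library it was present in 18 of 23 (78.3%, 56.3 to 92.5) with 33 UMIs, or 135 CPM (92.7 to 189). The 348 Tie2-GFP ECs with at most 1 mural gene held 0 (up to 1.03 CPM and 0.862% of barcodes allowed), as did the 18 of the NG2-DsRed library (up to 21.6 CPM). For intermediate barcodes against these ECs, the lower limit of the interval of the log2 ratio was 5.37 for Tie2-GFP and 2.26 for NG2-DsRed. The 34 barcodes of the Tie2-GFP library with at least 4 of 6 genes of marginal cells, an epithelial layer of the SV, also held 0.

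At 2000 UMIs the expected share with Cspg4 was 10.9% in Tie2-GFP and 25.3% in NG2-DsRed intermediate barcodes, against 68.4% in mural barcodes. None of the 6 mural check genes had a UMI in the 87 Tie2-GFP intermediate barcodes, and Higd1b alone had 1 UMI in the 23 of the NG2-DsRed library. Of the mural class genes, Rgs5 had 4 UMIs in the 87 and 2 in the 23, Vtn 0 and 1, and Notch3 0 in both. Of the contractile class genes, Acta2 had 0 and 3 UMIs, Tagln 1 and 0, and Myh11 0 in both. The NG2-DsRed library had its cells selected with the Cspg4 promoter when sorted, and its higher share cannot be told apart from that selection. The mitochondrial limit of 5% in the study's methods was exceeded by 79 of the 87 and 16 of the 23 barcodes. Within all limits of those methods 6 Tie2-GFP intermediate barcodes remained, with 3 Cspg4 UMIs (26.9 CPM).

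**Figure D4:**
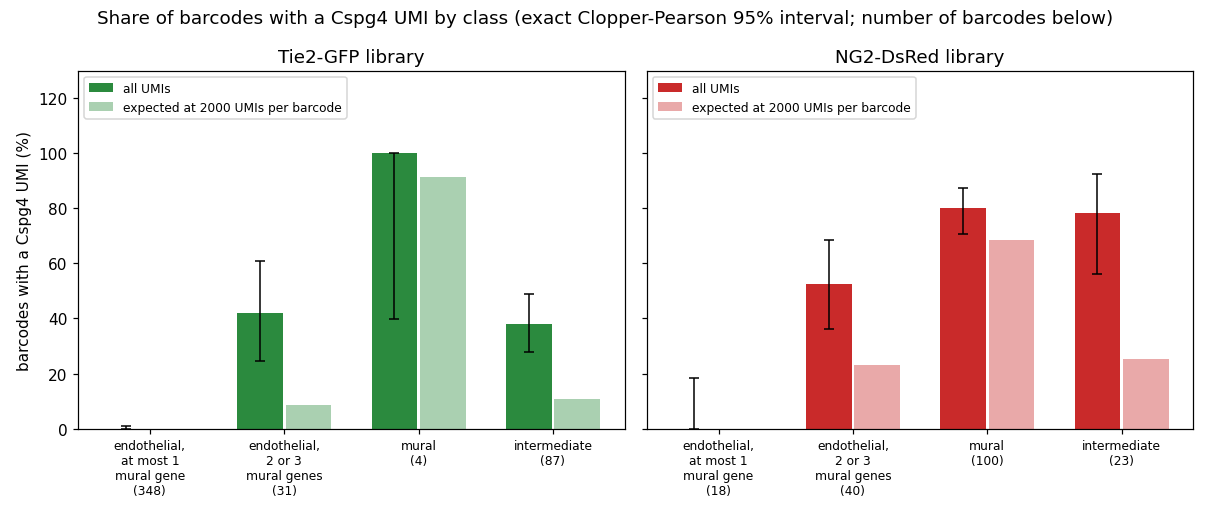
Share of barcodes with at least 1 Cspg4 UMI (%) in 4 classes of each library, dark bars over all UMIs with exact Clopper-Pearson 95% intervals and light bars for the share computed at 2000 UMIs per barcode. ECs with at most 1 mural gene were at 0 of 348 and 0 of 18, while intermediate barcodes were at 37.9% and 78.3%, and at 10.9% and 25.3% at equal depth.

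The other 6 genes were lower in intermediate barcodes than in Tie2-GFP ECs. Besides Pdgfb, with a log2 ratio of −7.58 (−13.47 to −5.68), these were Gas6, Pdgfa, Mcam, Pdgfrb and Pdgfd. Gas6 stood at −2.68 (−3.10 to −2.31) and Pdgfa at −2.57 (−3.61 to −1.79). Mcam stood at −5.50 (−11.39 to −3.58) and Pdgfrb at −4.89 (−10.79 to −2.97). Pdgfd had 0 UMIs in intermediate barcodes, and the upper limit of the interval of its log2 ratio was −3.06. With every barcode weighted equally Pdgfa stood at −1.60, Gas6 at −2.29 and Cspg4 at 3.99. The ratio of Pdgfrb turned to 0.41 when ECs with mural genes were left out, with 1 UMI against 2. Among all 8391 genes tested 28.6% were lower and 17.7% higher, and the lists below are read beside these shares. The PDGF early response list was lower in 7 of 10, among them Fos at 753 against 5930 CPM (−2.98, −3.07 to −2.88) and Jun at 660 against 4168 CPM (−2.66, −2.76 to −2.56). Etv5, named after its value was seen, was the single higher gene (2.18). Whether PDGF or the enzyme digestion of the tissue before capture set these levels was not tested. The co-receptor Nrp1 was lower at 2.28 against 197 CPM (−6.21, −8.71 to −4.88). In the NG2-DsRed library Nrp1 stood at 644 CPM in mural barcodes and 364 CPM in ECs. Sparc, a matrix protein that binds PDGF-B, was also lower in intermediate barcodes, at 130 against 2057 CPM (−3.98, −4.21 to −3.76). Signal relay was lower in 9 and higher in 2 of 24 genes, with Stat3 at −3.00 (−3.47 to −2.59) and Sos1 at −3.04 (−3.67 to −2.52). The adhesion receptor Cd44 of the pericyte surface list was higher at 211 against 1.75 CPM (6.80, 5.77 to 8.37), and the list as a whole had 2 higher and 4 lower of 6.

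The TAM genes had unlike distributions over the classes. Gas6 was present in 288 of 379 Tie2-GFP ECs (76.0%, 71.4 to 80.2) at 285 CPM (267 to 304). Of these barcodes 217 also held Pdgfb, which was found in 276 of all 379 ECs. In intermediate barcodes Gas6 stood at 44.1 CPM (33.5 to 57.1), with 58 UMIs in 38 of 87. The 34 marginal-marker barcodes stood at 377 CPM (317 to 444), with 143 UMIs in 29 barcodes, although they held 0 UMIs of Pdgfb (up to 7.90 CPM). Their median mitochondrial share was 20.5%, and 32 of the 34 exceeded 5%. In the NG2-DsRed library the levels were 158 CPM (127 to 194) in ECs, 44.1 CPM (24.7 to 72.8) in mural and 44.9 CPM (22.4 to 80.3) in intermediate barcodes. Pros1, the other TAM ligand, stood at 73.7 CPM (64.9 to 83.3) in Tie2-GFP ECs and 109 CPM (76.6 to 150) in NG2-DsRed mural barcodes.

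Axl was found mainly in mural barcodes, at 207 CPM (147 to 282) in contractile and 271 CPM (194 to 368) in other mural. Tie2-GFP ECs held 13 UMIs (3.79 CPM, 2.02 to 6.47), 12 of them in the 31 barcodes with mural genes. Intermediate barcodes of Tie2-GFP had 1 Axl UMI and those of NG2-DsRed 0. Tyro3, in contrast, was present in 69 of 87 intermediate barcodes at 145 CPM (125 to 167) against 0.874 CPM in ECs, a log2 ratio of 7.16 (5.81 to 9.67). The NG2-DsRed library, looked at after the Tie2-GFP values were seen, held 38 Tyro3 UMIs in 17 of 23 intermediate barcodes (155 CPM, 110 to 213) and 0 in mural barcodes (up to 8.82 CPM) and ECs. Mertk was found in all 3 classes, at 113 CPM (95.2 to 132) in Tie2-GFP intermediate barcodes against 33.5 CPM (27.6 to 40.2) in ECs, and in the NG2-DsRed library at 93.9 CPM (59.5 to 141) in intermediate and 100 CPM (69.2 to 140) in mural barcodes. The gene of gamma-carboxylase, Ggcx, whose enzyme acts on Gas6 and Pros1, was higher in intermediate than EC barcodes (2.93, 2.38 to 3.54).

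**Figure D5:**
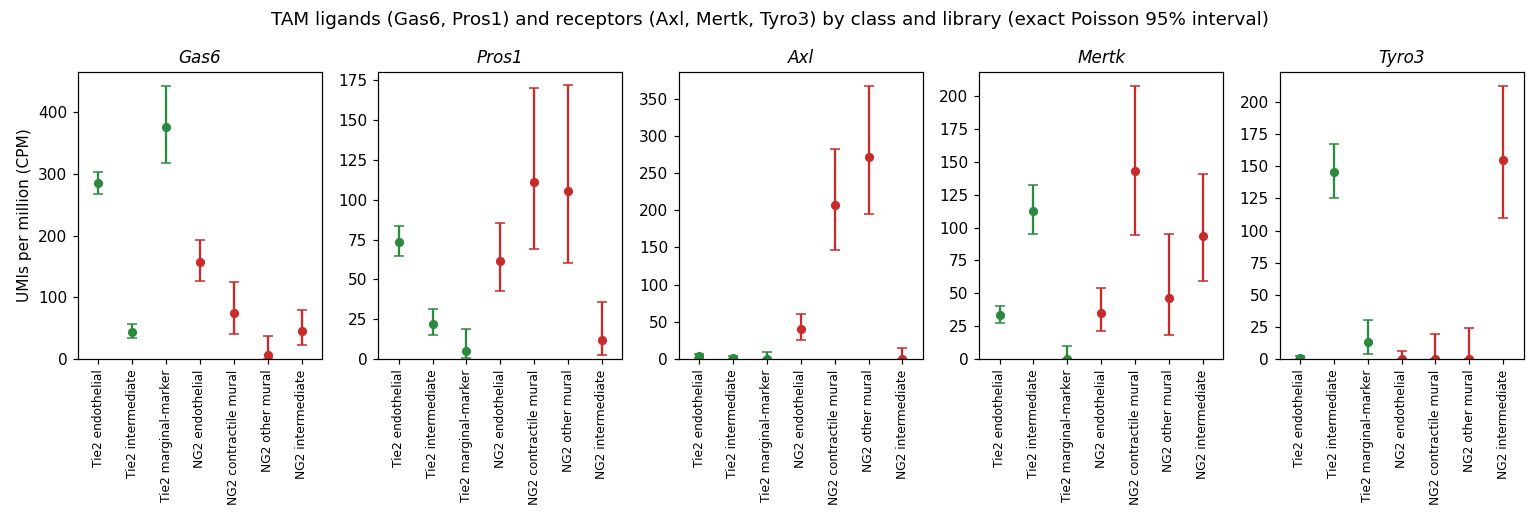
CPM (linear axes that differ between genes) of the TAM ligands Gas6 and Pros1 and receptors Axl, Mertk and Tyro3 in 7 groups of barcodes, green for the Tie2-GFP and red for the NG2-DsRed library, with exact Poisson 95% intervals. Gas6 was highest in marginal-marker barcodes (377 CPM) and Tie2-GFP ECs (285 CPM), Axl in mural barcodes, and Tyro3 in intermediate barcodes of both libraries (145 and 155 CPM).

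Lastly, ECs of the Tie2-GFP library with at least 2 of 6 arterial genes (96 barcodes) were set against those with at least 2 of 5 venous genes (88 barcodes). Of 5 genes with 50 UMIs, 1 was higher in arterial-gene ECs and 0 were lower, where 2.3% of 5220 genes were higher and 2.03% lower. The gene was Pdgfrb, at 48.2 and 13.9 CPM (1.76, 0.88 to 2.81), and its ratio turned to −2.15 without ECs carrying mural genes, with 0 UMIs against 2. Pdgfa stood at 87.8 CPM (69.8 to 109) in arterial-gene and 47.0 CPM (34.2 to 63.1) in venous-gene ECs, so that the log2 ratio was 0.89 (0.36 to 1.46). It passed the rule narrowly, at 1.01, once ECs with mural genes were left out. Gas6 went the other way, at 226 CPM (196 to 259) and 405 CPM (365 to 448), with a log2 ratio of −0.84 (−1.09 to −0.60), and was found in 72.9% and 87.5% of barcodes, or 35.4% and 51.5% at 2000 UMIs. For Pdgfb, at 249 and 207 CPM, the interval of the ratio included 0 (0.27, −0.01 to 0.55), as it did for Mcam (0.52, −0.07 to 1.14). None of the listed pathway genes passed 2-fold in this comparison. In the NG2-DsRed library, with 18 and 10 barcodes, Gas6 stood at 84.5 CPM (47.3 to 139) and 225 CPM (147 to 330), and Pdgfa at 135 CPM (86.6 to 201) and 173 CPM (106 to 268).

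Each gene with at least 100 UMIs over the 6 groups was also matched to the genes of most similar pattern, whatever their level or range. The measure was Pearson r of log2(CPM + 10) among 7072 genes with at least 100 UMIs, as a description over 6 points that share 2 libraries. Pdgfd, Pdgfra and Anpep had fewer UMIs and were not matched. Nearest to Pdgfrb were Mcfd2, Pid1 and Rarres2, to Cspg4 Gipc1, Fam122a and Sdc2, and to Axl Slc38a11, Gas1 and Gprc5c. Nearest to Pdgfb were Agfg1, Anxa3 and Uaca, to Gas6 Ppp2r2d, Gltp and Cltb, to Pdgfa Ino80b, Hmgn1 and Fam241a, and to Mcam 4930523C07Rik, Abr and Fstl1. All r were between 0.989 and 0.999.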

How the data were processed

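Cells of the mouse stria vascularis were profiled by 10x Chromium 3′ single-cell RNA-seq in 2 libraries, 1 per reporter line and each a pool of 10 mice. The authors deposited filtered matrices of UMI counts per gene and barcode, not normalised, made with bcl2fastq 2.20.0.422 and Cell Ranger against mm10 per the labels. Matrix headers gave software version 7.0.0 for Tie2-GFP and 3.0.0 for NG2-DsRed, and the files listed different gene sets. The deposited counts held 5432289 UMIs in 633 barcodes (median 6956) and 1232599 in 201 barcodes (median 4322).

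All barcodes were used, and no doublets were removed. Counts were summed per class and library and given as CPM with exact Poisson intervals, shares with exact Clopper-Pearson intervals and ratios with exact conditional binomial intervals at 95%, and a count of 0 was read as up to 3 UMIs. The intervals cover counting error only, since each reporter line had 1 library and no test across mice was possible. Ratios carried 0.5 added UMIs, and a difference of at least 2-fold in a gene with at least 50 UMIs was called. Shares at 2000 UMIs were computed from the hypergeometric distribution, leaving out shallower barcodes. Marginal-marker barcodes were barcodes of no class with at least 4 of 6 marginal genes, a limit chosen after seeing the data. Arterial-gene and venous-gene ECs with both kinds of gene were left out. From each pathway list at most 4 genes past the rule were named, by total UMIs. The genes and lists were chosen with earlier results of these data known. Alternatives covered the study's filters, doublets, depth, class rules, totals, weights and the minimum of UMIs. The scripts were tested on simulated data. Python 3.11.15, numpy 2.4.6, scipy 1.17.1, pandas 2.3.3, scanpy 1.11.5 (Scrublet) and matplotlib 3.10.9 were used.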

Additional observations from a re-analysis of the deposited data

Results flagged for a closer look

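Some values stand outside the comparisons above. The 4 mural barcodes of the Tie2-GFP library, too few to compare, held 10 Pdgfa UMIs in 2 barcodes (809 CPM, 388 to 1489), 10 Cspg4 UMIs in 4 barcodes (809 CPM, 388 to 1489) and 25 Pdgfrb UMIs in 4 barcodes (2023 CPM, 1309 to 2987). They held 0 UMIs of Pdgfb, Gas6 and Axl, which allows up to 243 CPM of each. In the 348 Tie2-GFP ECs with at most 1 mural gene the levels were 52.3 CPM for Pdgfa, 0 for Cspg4 and 0.689 CPM for Pdgfrb.

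Pdgfra stood at 41.7 CPM (27.7 to 60.3) in the 163 Tie2-GFP barcodes of no class, against 0.582 CPM in ECs. Of the 12 Tie2-GFP barcodes with Pdgfra, 8 were of no class, 2 were ECs and 2 were intermediate, and the highest held 11 of the 36 UMIs.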

How the results depend on the processing

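No paired analysis was possible because each reporter line had 1 library. Of 322 alternative log2 ratios 309 stayed within the counting interval of the reported value, 11 lay outside it and 2 called ratios reversed. Of 540 alternative levels 508 stayed within their interval and 32 lay outside it. The 2 were Pdgfrb when ECs were limited to at most 1 mural gene, at 0.41 for intermediate against EC barcodes and −2.15 for arterial-gene against venous-gene ECs, with at most 2 UMIs in either class. Of 56 alternative counts of called genes 51 stayed within 1.5 times the main count. Between contractile and other mural barcodes the count went from 1 to 2 without mural barcodes holding endothelial genes and with a contractile limit of 6 UMIs, where Pdgfrb passed the rule at −1.06 and −1.19, and to 3 with no minimum of UMIs. With no minimum it went to 8 between intermediate and mural barcodes and to 4 between arterial-gene and venous-gene ECs. The study's limits kept 399 of 633 and 165 of 201 barcodes, with 6 and 7 intermediate barcodes, under the 10 required, so comparisons with intermediate barcodes gave no value there. Scrublet marked 0 barcodes of the Tie2-GFP library, where it cannot be taken as a test of doublets, and 6 of the NG2-DsRed library. Depth limits Pdgfd, Pdgfra and Anpep most, with fewer than 50 UMIs in most comparisons. Leaving out the top barcode of each gene, the contractile limit of 1000 CPM and the pathway lists against ECs with at most 1 mural gene were chosen after seeing the data.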
